A study of Mus musculus with 60 samples.

Results

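The mitochondrially encoded genes of the exon table were mt-Rnr1 (ENSMUSG00000064337) and mt-Cytb (ENSMUSG00000064370). They were found as all genes whose symbol, read from the Ensembl identifier, starts with mt-, and they were 2 of the 9066 genes. GENCODE M21 lists 37 genes of this kind, and the other 35 were not analysed here. Both genes had 1 exon row each. In the gene table they had no reads in any mouse, the only 2 genes of which this was true, so the exon rows were used. The values are read counts that the authors multiplied by 1 upper quartile factor per library and rounded, called exon values below.

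Mitochondria hold a small circular genome of their own. Its messenger RNAs encode core subunits of the respiratory chain and ATP synthase, the complexes that pass electrons to oxygen and make ATP, while the remaining subunits of those complexes are encoded in the nucleus. mt-Cytb encodes cytochrome b, the mitochondrially encoded subunit of complex III, and mt-Rnr1 is the 12S ribosomal RNA, the RNA of the small subunit of the mitochondrial ribosome that translates cytochrome b. The genome is transcribed as long precursors that are then cut, so that the amount of each mature RNA also depends on its stability. Striatum has a high demand for ATP, and mitochondrial transcripts are abundant in brain.

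The data came from hand-dissected striatum of 60 HS-CC mice, an outbred stock derived from the founder strains of the collaborative cross, with 1 polyA RNA-seq library per mouse. Over earlier generations the animals had been bred for their response to haloperidol, a dopamine receptor blocker, and the labels call each mouse a responder or a non-responder for catalepsy, a state of immobility. There were 30 mice of each phenotype, with 13 females and 17 males among the non-responders and 15 of each sex among the responders, and no further treatment in the labels. Ages, litters and the founder origin of the mitochondrial genome, which is inherited from the mother, were not analysed here.

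Whole reads recovered from the gene table numbered from 4913122 to 21872744 per mouse, in 2 ranges. They count the reads assigned to the genes of that table, not all reads sequenced, and are called depth below. The 17 mice under 10000000 reads, numbers 41 to 56 and 26, came from every combination of sex and phenotype, with 5 male non-responders and 4 mice of each other kind, and the other 43 mice had at least 12051239 reads. Of the marker lists, 8 of 10 medium spiny neuron genes, which mark the main striatal neuron, were in the table and summed to between 61616 and 141205 per mouse. The 16 mice numbered 41 to 56 also stood apart in 3′ bias, which is the median over genes of how steeply exon values climb along a gene, compared with the other mice. It was between -0.316 and -0.170 in these mice and between -0.159 and 1.48 in the other 44, with the strongest values in mice 63, 5, 4 and 62. The group differences and the correlations between mice are therefore also given within the depth ranges.

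Both genes lie on the plus strand of the mitochondrial chromosome. In GENCODE M21, which uses GRCm38, mt-Rnr1 is at chrM:70-1024 and has 955 bases, and mt-Cytb is at chrM:14145-15288 and has 1144 bases. The authors aligned to NCBI m37, and the exon rows of their table start at the same positions, 70 and 14145. Neither gene has an intron. The libraries were made from RNA caught on oligo-dT beads, which bind runs of A, so the 3′ ends of both transcripts and the stretch of mt-Rnr1 richest in A are shown, as GENCODE M21 gives them. In the end of mt-Cytb the capital marks the single base that is left over after 381 whole codons and that becomes a stop codon when the poly(A) tail is added.
mt-Cytb, last 60 bases, chrM:15229-15288: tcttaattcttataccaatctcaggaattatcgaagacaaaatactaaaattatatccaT
mt-Rnr1, last 60 bases, chrM:965-1024: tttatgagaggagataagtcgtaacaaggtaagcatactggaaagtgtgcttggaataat
mt-Rnr1, 30 bases richest in A, chrM:715-744: taaagtaagcAAAAgaatcaaacatAAAAA

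In the last of these, capitals mark runs of 4 or more A, and 20 of the 30 bases are A. The 30 bases of mt-Cytb richest in A, chrM:15254-15283, hold 17 A and lie within the end shown above. Both genes are rich in A, with 37.8% of the bases of mt-Rnr1 and 31.7% of those of mt-Cytb, and the longest run of A was 5 bases in either gene. Of the last 30 bases, 15 are A in mt-Cytb and 11 in mt-Rnr1. As background, mitochondrial messenger RNAs of mammals carry poly(A) tails, while the ribosomal RNAs carry short ones or none.

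A search of the GENCODE M21 transcripts with BLAST found 6 nuclear pseudogenes similar to mt-Cytb, none of which was in the exon table. The closest was Gm11410, with 92.9% identity over 1142 bases, and for mt-Rnr1 the search found no similar transcript. Reads of mt-Cytb could have been shared with Gm11410, and its value is uncertain to that extent. How such reads were assigned was not tested. The search covered annotated transcripts only, so unannotated nuclear copies of either gene could not be found.

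The mitochondrial genes had the highest exon values of the table. Averaged over the 60 mice, mt-Rnr1 was at 299926 and mt-Cytb at 277491. In single mice mt-Rnr1 ranked first in 22 and second in 38, and mt-Cytb ranked first in 38, second in 14 and lower in the rest. Together they made up between 1.83% (mouse 25) and 8.04% (mouse 42) of all exon values of a mouse, with a median of 3.75%. The lowest number of estimated reads was 38513, for which the counting error is 0.51%, so that the spread described below is far larger than that of counting.

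mt-Rnr1 varied 8.71-fold between mice, from 99364 in mouse 58 to 865776 in mouse 49, with a median of 212346. The high values were those of a run of mouse numbers. In mice 41 to 56 it was between 331538 and 865776 with a median of 624738.5, and in the other 44 mice between 99364 and 391541 with a median of 166087.5, so the ranges overlapped only slightly. Mouse 26, which shares the low depth but not the run of numbers, was at 205257. The 16 mice of this run came from all 4 groups, and their low depth, their 3′ bias and their mouse numbers cannot be told apart.

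**Figure D1:**
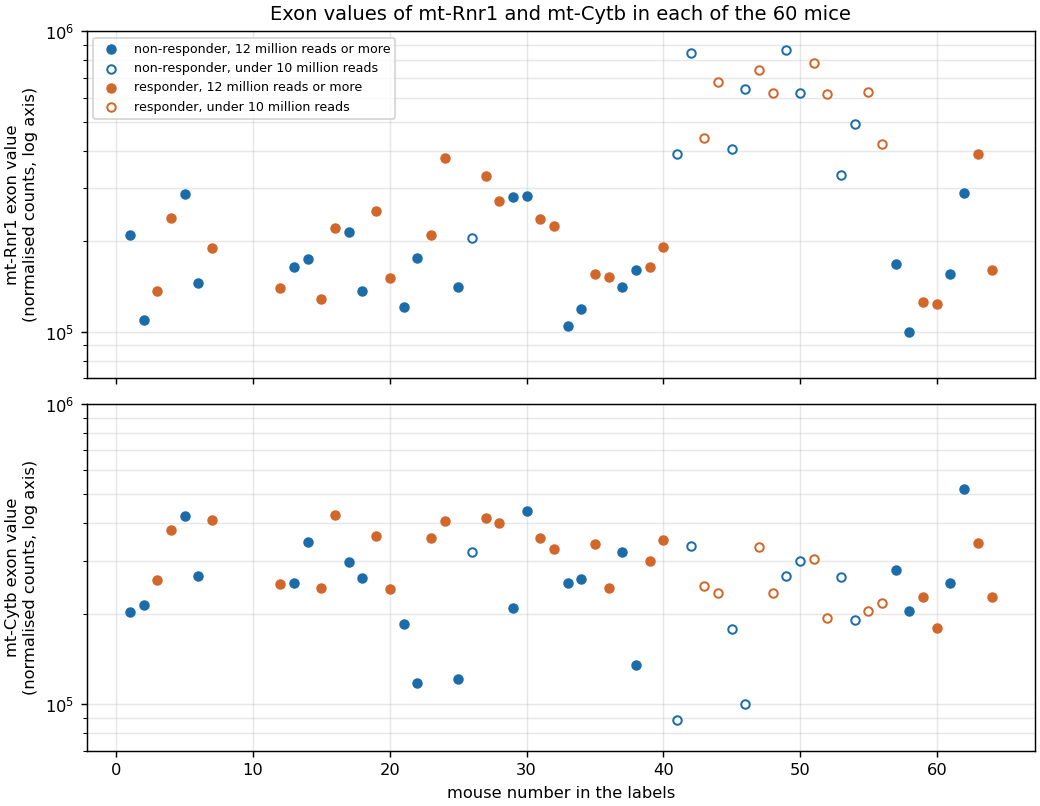
Exon values of mt-Rnr1 (top) and mt-Cytb (bottom) on log axes against the mouse number of the labels, 1 point per mouse, with colour for the catalepsy phenotype and open points for mice under 10000000 reads. mt-Rnr1 lies between 331538 and 865776 in mice 41 to 56 and at 391541 or less elsewhere, while mt-Cytb has no such step.

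mt-Cytb varied 5.89-fold, from 88281 in mouse 41 to 520036 in mouse 62, with a median of 262566. In mice 41 to 56 it was between 88281 and 336867 with a median of 235183, and in the other 44 mice between 117433 and 520036 with a median of 272642. The step of mt-Rnr1 was thus absent from mt-Cytb, and the ratio of the medians, mice 41 to 56 over the others, was 3.76 for mt-Rnr1 and 0.863 for mt-Cytb. The coefficient of variation over the 43 mice of high depth was 0.376 for mt-Rnr1 and 0.316 for mt-Cytb, against a median of 0.241 for the nuclear respiratory chain genes and 0.144 for all genes averaging at least 500.

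Per kilobase of transcript, the exon value of mt-Cytb was 1.34 times that of mt-Rnr1 in the median mouse of high depth. The range was from 0.557 (mouse 22) to 2.02 (mouse 33). mt-Cytb was the higher of the 2 in 36 of these 43 mice. In mice 41 to 56 the ratio was between 0.130 (mouse 46) and 0.670 with a median of 0.326, and mt-Rnr1 was the higher of the 2 in each. These ratios are descriptions without a test. The oligo-dT beads may catch the 2 RNAs unequally, so the ratios compare exon values and not amounts of RNA in the tissue.

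Other genes shared the step of mt-Rnr1 between mice 41 to 56 and the rest. By the rule used for naming, the 5 genes most like it over the 60 mice were ENSMUSG00000087313 (r = 0.903), ENSMUSG00000093077 (r = 0.891), Gm24245 (r = 0.887), Lars2 (r = 0.882) and Gm23935 (r = 0.875). Lars2 encodes the mitochondrial leucyl-tRNA synthetase, which charges the leucine tRNA for mitochondrial translation, but its exon value was not spread over the gene. The last of its 21 exon rows held 99.7% of the value, with a mean of 72680, and the next highest row had a mean of 34.6. Lars2 was between 163651 and 546551 in mice 41 to 56 and between 914 and 5818 in the other 44 mice, with no overlap. Gm24245 was between 26504 and 85024 and between 133 and 1506 in the same order. Gm24245 and Gm23935, annotated as miRNA genes in GENCODE M21, have the same 57 bases, so that reads of one cannot be told from reads of the other. Within the 43 mice of high depth, r with mt-Rnr1 was 0.528 for Lars2 and 0.503 for Gm24245, and within mice 41 to 56 it was 0.733 for Lars2, 0.791 for Gm24245 and 0.052 for Gm23935. The part of these rows in the level of mt-Rnr1 was not tested.

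The first comparison of the design asks whether the mitochondrial transcripts differed between the catalepsy phenotypes. mt-Cytb was between 88281 and 520036 in the 30 non-responders with a median of 257366 and between 179914 and 426273 in the 30 responders with a median of 302426. The groups overlapped over most of their range. At the lower end, 6 non-responders and no responder were under 179914, namely mice 41, 46, 22, 25, 38 and 45, and of the 10 lowest mice 8 were non-responders. These mice were picked by their values, and no test was made on them. The highest mouse, 62, was a non-responder as well, and the spread was wider in non-responders (SD 99632) than in responders (SD 75802).

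In the fit across all genes, mt-Cytb was higher in responders by 0.32 on the log2(value + 1) scale (SE 0.13, 95% interval 0.061 to 0.58, n = 30 and 30), which did not pass the threshold of 0.05 after adjustment over the 8530 genes fitted (limma, adjusted p = 0.530). In that fit 10 genes were called, 5 in each direction, which is 0.117% of those tested, and neither mitochondrial gene was among them. Before adjustment p was 0.0164 in limma and 0.0145 in a two-sided permutation test that exchanged the phenotype within sex, and 560 of the 8530 genes had an unadjusted p under 0.05. The difference was 0.34 (SE 0.14) in the 43 mice of high depth and 0.23 (SE 0.26) in the 17 of low depth. edgeR on estimated reads gave 0.26 (adjusted p = 0.755), with 7 genes called (0.0821%).

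mt-Rnr1 was between 99364 and 865776 in non-responders with a median of 190700 and between 123955 and 782352 in responders with a median of 231026. The ranges covered nearly the same span. The difference was 0.20 (SE 0.22, 95% interval -0.25 to 0.64, adjusted p = 0.999 in limma), with 0.23 (SE 0.15) in the mice of high depth and 0.31 (SE 0.28) in those of low depth. The permutation test within sex gave p = 0.402. The interval of mt-Rnr1 was wider than that of mt-Cytb, and with a term for mice 41 to 56 the difference was 0.20 (SE 0.12).

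**Figure D2:**
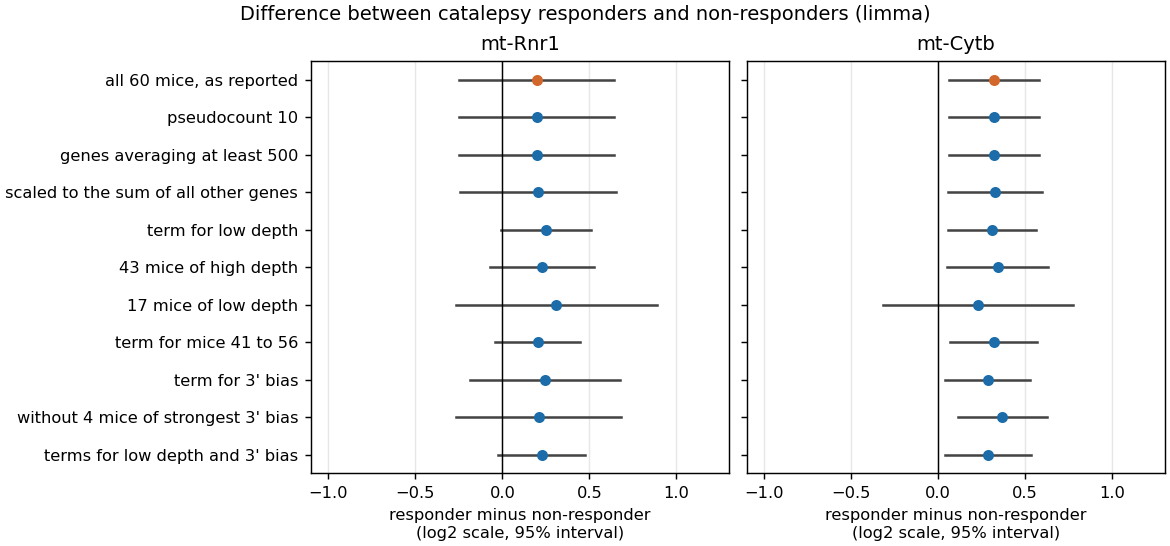
Responder minus non-responder for mt-Rnr1 and mt-Cytb on the log2(value + 1) scale, with points for the estimates and lines for unadjusted 95% intervals from limma, in all mice and under 10 other settings. The estimates of mt-Cytb lie above 0 throughout and their interval holds 0 in the 17 mice of low depth, and every interval of mt-Rnr1 holds 0.

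**Figure D3:**
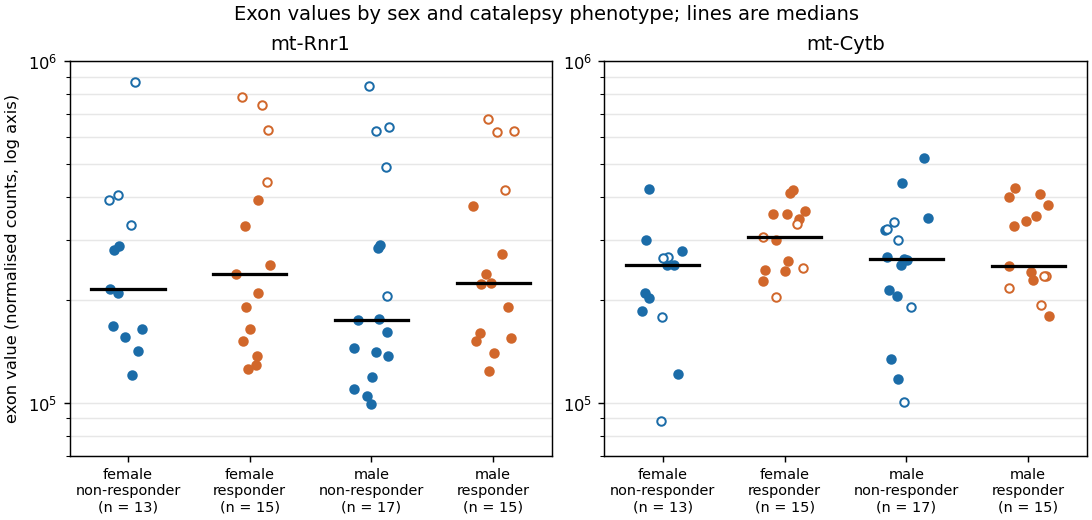
Exon values of mt-Rnr1 and mt-Cytb by sex and catalepsy phenotype on log axes, 1 point per mouse, with open points for mice under 10000000 reads and black lines for medians. The groups overlap for both genes, and the median of mt-Cytb is 304943 in female responders against 252685 in female non-responders but 250444 against 263900 in males.

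The second comparison was that of the sexes. The median of mt-Rnr1 was 226288 in 28 females and 198034 in 32 males, and that of mt-Cytb was 262946 and 262566. The difference, female minus male, was 0.11 for mt-Rnr1 (SE 0.22) and -0.051 for mt-Cytb (SE 0.13), each with an adjusted p of 1.00 in limma. At high depth it was 0.15 and -0.055 and at low depth -0.0080 and -0.034. Of all genes 3 were called, which is 0.0352%, and neither mitochondrial gene was among them. Within females mt-Cytb was higher in responders by 0.47 (SE 0.17) and within males by 0.19 (SE 0.19). The median of male responders, 250444, was however below that of male non-responders, 263900. In limma fits within each sex the adjusted p of these effects was 0.9996 and 0.999, and no gene was called in either sex. The difference between these effects, tested as the interaction, was 0.28 (SE 0.26, adjusted p = 1.00 in limma). For mt-Rnr1 the interaction was -0.13 (SE 0.45). At high and low depth it was 0.14 and 0.61 for mt-Cytb and -0.28 and 0.28 for mt-Rnr1. No gene was called in the interaction by limma or edgeR (0%), where 45 and 42 genes had an unadjusted p under 0.05.

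The 2 mitochondrial genes varied together within the mice of high depth. There, r was 0.606 and rho 0.677 (n = 43, permutation p = 2e-05 and 1e-05, adjusted p = 0.000152 and 9.5e-05 over the 38 p-values of 19 relations), and r was 0.598 without the 2 mice farthest from the median of mt-Rnr1. The smallest p that 100000 resamples can give is 1e-05. In the 17 mice of low depth r was 0.143 and rho 0.365 (permutation p = 0.583 and 0.151), and r was 0.566 without mice 26 and 53. Within mice 41 to 56, which leave out mouse 26, r was 0.419. Over all 60 mice, in which mice 41 to 56 form a step in one gene only, r was 0.031 and rho 0.162 (permutation p = 0.813 and 0.214).

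Depth and 3′ bias were compared with both genes. With log2 reads, r of mt-Rnr1 was -0.348 at high depth and -0.545 at low depth (permutation p = 0.0233 and 0.0226, adjusted p = 0.0517 for each), with rho -0.344 and -0.615 (adjusted p = 0.0517 and 0.0253), and r of mt-Cytb was -0.176 and -0.265 (permutation p = 0.259 and 0.304). With 3′ bias, mt-Rnr1 had r = 0.445 at high depth (permutation p = 0.00215, adjusted p = 0.00743), which was 0.198 without mice 5 and 63 and so rested on them, and r = -0.723 at low depth (permutation p = 0.00307), which was -0.422 without mice 26 and 54. Over all mice it was -0.260, with rho -0.522. For mt-Cytb r with 3′ bias was 0.370 over all mice (permutation p = 0.00538, adjusted p = 0.0146), 0.342 at high depth and -0.016 at low depth. Whether these differ between the 2 genes was not tested. With 3′ bias and reads held fixed, r of mt-Rnr1 with mt-Cytb at high depth was 0.528 (permutation p = 0.00029).

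The nuclear respiratory chain was then set beside them. Of 82 nuclear subunit genes listed for complexes I to IV and ATP synthase, 65 were in the table, all above the filter, and their mean log2 value was taken for each mouse. In the mice of high depth mt-Rnr1 followed this mean with r = 0.761 and rho = 0.768 (permutation p = 1e-05 for each, adjusted p = 9.5e-05), and r was 0.712 without mice 5 and 63, which had the highest nuclear values, and 0.722 with 3′ bias and reads held fixed. In the mice of low depth r was 0.075 and rho 0.279 (permutation p = 0.776 and 0.276), and over all mice r was 0.023 and rho 0.070 (permutation p = 0.863 and 0.593). For mt-Cytb the relation was seen in both ranges. It was r = 0.544 and rho = 0.646 over all mice (permutation p = 3e-05 and 1e-05), 0.516 and 0.581 at high depth (p = 0.00051 and 1e-04) and 0.523 and 0.721 at low depth (p = 0.031 and 0.00175, adjusted p = 0.0560 and 0.00665). Without the 2 farthest mice, r was 0.554, 0.522 and 0.421 in that order, and with 3′ bias and reads held fixed it was 0.407 at high depth.

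**Figure D4:**
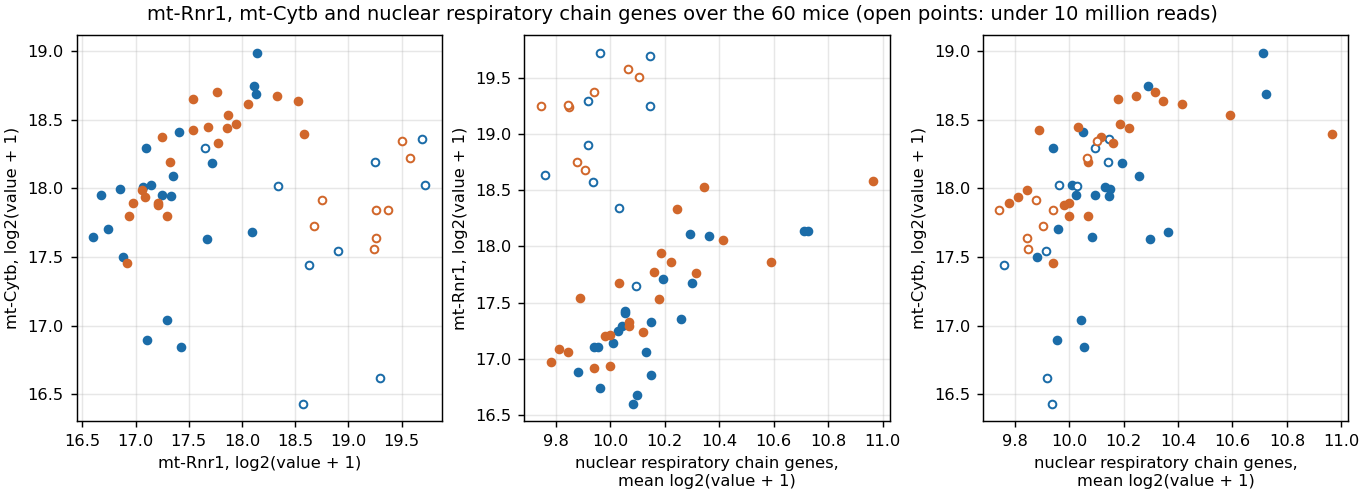
log2(value + 1) of mt-Rnr1, mt-Cytb and the mean of 65 nuclear respiratory chain genes in the 60 mice, with blue for non-responders, orange for responders and open points for mice under 10000000 reads. In the first and second panel 14 of the 17 open points lie at higher mt-Rnr1 than any filled point, and in the third the open points continue the filled ones.

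Among the complexes, the correlation with mt-Rnr1 at high depth had a median over genes of 0.728 for complex I (32 genes), 0.553 for complex II (4), 0.588 for complex III (8), 0.662 for complex IV (8) and 0.657 for ATP synthase (13), and it was above 0 for 59 of the 65 genes. The median over all 8528 other genes fitted was -0.062, with 3987 above 0. With mt-Cytb over all mice the medians were 0.528, 0.401, 0.447, 0.547 and 0.428 in the same order, with 61 of 65 above 0, against -0.057 for all genes. In the mice of low depth the correlation with mt-Rnr1 had a median of 0.023 over the 65 genes, with 35 above 0, and that with mt-Cytb had medians of 0.482 at high and 0.409 at low depth. Complex II has no mitochondrially encoded subunit. These correlations are across genes that share the same libraries, and they are given without a p.

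Within complex III, the partners of cytochrome b, the small subunits stood at the top. Uqcrh, the hinge protein of the complex, had r = 0.904 with mt-Rnr1 at high depth and 0.585 with mt-Cytb over all mice. For Uqcrq it was 0.782 and 0.577, for Uqcr10 0.739 and 0.573 and for Uqcr11 0.695 and 0.600. The Rieske iron-sulfur protein Uqcrfs1 had 0.480 and 0.321, and cytochrome c1 (Cyc1) had 0.238 and 0.209. The large core proteins were lowest, with 0.152 and 0.135 for Uqcrc2 and -0.139 and 0.031 for Uqcrc1. At low depth the 8 genes lay between -0.536 and 0.369 with mt-Rnr1 and between -0.348 and 0.736 with mt-Cytb. Of the assembly factors, Uqcc2, which acts on newly made cytochrome b, had 0.882 and 0.700, Uqcc3 had 0.644 and 0.532, and Ttc19 had -0.446 and -0.323.

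A wide range was also seen in the other complexes. In complex I the highest were Ndufa5 (0.869 with mt-Rnr1 at high depth) and Ndufb9 (0.867), both accessory subunits, and the lowest were the core subunits Ndufs1 (-0.245) and Ndufv1 (-0.063), although Ndufv2, also a core subunit, had 0.833. In ATP synthase Atp5j had 0.887 and Atp5j2 0.831, while Atp5a1, the alpha subunit, had -0.272 and Atp5b, the catalytic beta subunit, 0.240. In complex II the flavoprotein Sdha had -0.267 and the membrane anchor Sdhd 0.706. In complex IV all 8 genes were above 0, from 0.427 for Cox5a to 0.897 for Cox6c.

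Transcript length moved with this range. Over the 8387 genes with a length in GENCODE M21, taken as the longest transcript, the rank correlation of length with r to mt-Rnr1 at high depth was -0.566. The median r was 0.595 for genes under 1000 bases, 0.424 for 1000 to 1999, 0.123 for 2000 to 3999 and -0.410 for 4000 or more. The nuclear respiratory chain genes are short, with a median of 1232 bases against 3822, and their medians in these classes were 0.733 (28 genes), 0.573 (23), 0.536 (12) and 0.466 (2). For mt-Cytb over all mice the rank correlation with length was -0.603, and the medians under 1000 bases were 0.561 for the respiratory chain and 0.432 for all genes. At low depth the rank correlation was 0.023 for mt-Rnr1 and -0.382 for mt-Cytb. The median of the respiratory chain genes was above that of all genes in each class for mt-Rnr1 at high depth. At low depth it was above only for 4000 bases or more. There the medians with mt-Rnr1 were 0.066, -0.00021, -0.128 and 0.099 from the shortest class to the longest. Those of all genes were 0.088, 0.00059, -0.077 and -0.023. The part of length in these correlations was not tested further.

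Proteins of the mitochondrial small ribosomal subunit, which assemble on the 12S RNA, gave a like picture. Of 33 listed, 24 were in the table, and all 24 were above 0 with mt-Rnr1 at high depth, with a median of 0.584. Chchd1 (0.891) and Mrps22 (0.819) were highest and Dap3 (0.109) and Ptcd3 (0.239) lowest. At low depth 12 of the 24 were above 0 with mt-Rnr1, with a median of -0.011. With mt-Cytb all 24 were above 0 at high depth (median 0.390) and 18 at low depth (median 0.235). Of all 8528 genes, 3987 were above 0 with mt-Rnr1 at high depth and 4066 with mt-Cytb. The median with mt-Rnr1 at high depth was 0.595 over all genes under 1000 bases and 0.424 for 1000 to 1999. The part of length in this list was not tested.

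**Figure D5:**
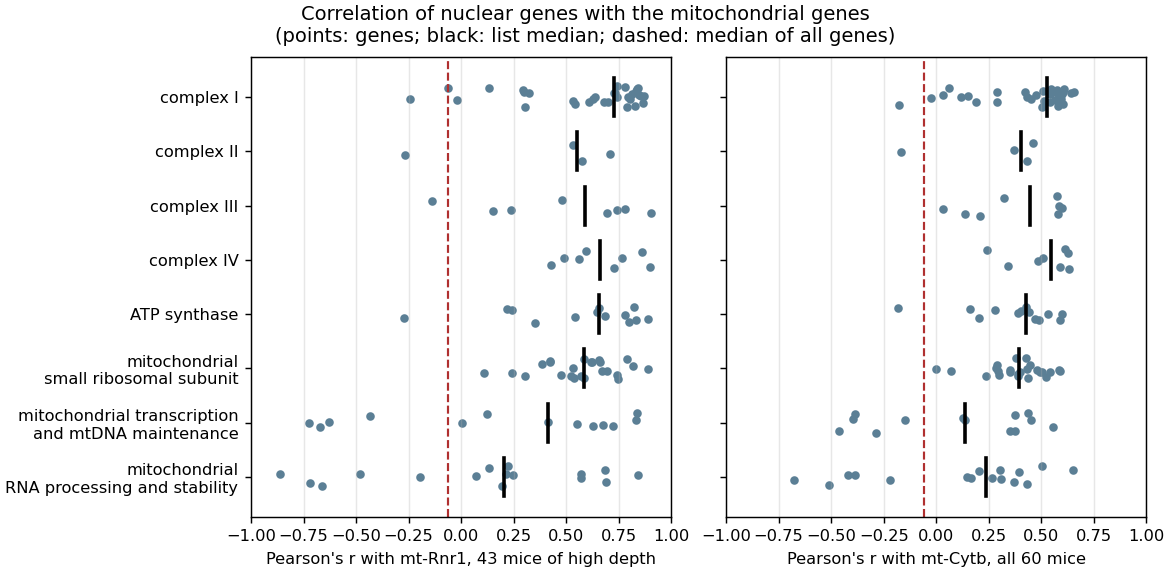
Pearson's r of each nuclear gene with mt-Rnr1 in the 43 mice of high depth (left) and with mt-Cytb in all 60 mice (right), by list, with black bars for list medians and a dashed line for the median of all genes. The medians of the 5 respiratory chain lists lie between 0.553 and 0.728 on the left, against -0.062 for all genes, and the 2 lowest lists hold genes on both sides of 0.

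Genes that make or stabilise mitochondrial RNA were divided. Tfam, which packs mitochondrial DNA and starts its transcription, had r = 0.837 with mt-Rnr1 at high depth and 0.451 with mt-Cytb over all mice, and the elongation factor Tefm had 0.832 and 0.557. The mitochondrial RNA polymerase Polrmt had -0.671 and -0.394, and the DNA polymerase Polg had -0.726 and -0.285. The products of Slirp and Lrpprc form a complex that stabilises mitochondrial messenger RNAs. These genes lay on opposite sides of 0, with 0.842 and 0.649 for Slirp and -0.719 and -0.679 for Lrpprc. At low depth they had 0.282 and -0.069 with mt-Rnr1 and 0.787 and -0.748 with mt-Cytb. Slirp was between 55 and 235 with a median of 102, and Lrpprc between 536 and 1117 with a median of 801.5. Mouse 62, the highest in mt-Cytb, was the lowest in Lrpprc, and mouse 41, the lowest in mt-Cytb, was the highest in Lrpprc and the lowest in Slirp. The Slirp value of mouse 41 was 55 in a library of low depth. It rests on few reads, so its counting error is larger than that of the mitochondrial genes. The helicase gene Dhx30 had -0.864 with mt-Rnr1 at high depth and -0.511 with mt-Cytb over all mice. Several of these values shrank or changed sign at low depth. There, Tfam, Tefm, Polrmt, Polg and Dhx30 had -0.152, -0.019, -0.163, 0.203 and -0.360 with mt-Rnr1. With mt-Cytb at low depth they had 0.171, 0.474, -0.400, 0.394 and -0.482 in the same order. The part of transcript length in this division was not tested.

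Genes of mitochondrial mass, such as carriers and import proteins, were spread around 0. Of 12 in the table, 7 were above 0 with mt-Rnr1 at high depth and 6 with mt-Cytb over all mice, with medians of 0.071 and -0.006. Of all 8528 genes, 3987 and 3950 were above 0 in these settings. With mt-Rnr1, 1 of the 12 was above 0 over all mice (median -0.310) and 1 at low depth (median -0.259). With mt-Cytb at low depth it was 3 (median -0.387). The medians of all genes in these 3 settings were -0.039, -0.026 and -0.055. Slc25a4, the adenine nucleotide carrier, was highest with mt-Rnr1 at high depth and with mt-Cytb over all mice (0.489 and 0.386). Hspa9, the matrix chaperone, had -0.516 and -0.438 in the same order.

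Over the 60 mice the 5 genes most like mt-Cytb were Hpf1 (r = 0.751), a cofactor of ADP-ribosylation, Ido1 (0.749), which starts tryptophan breakdown, the kinase gene Akt1 (0.735), Wdr4 (0.730), part of a tRNA methyltransferase, and Rnase4 (0.721). All were also above 0.6 within each depth range, the lowest being 0.628 for Rnase4 at high depth. The 5 genes were picked by r over the same mice, so the values within the ranges are not a separate test. None of the 5 was a respiratory chain gene, and Uqcc2 came seventh with 0.700.

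Values for 5 of the 6 cell type marker lists were set beside the mitochondrial genes. At high depth the r of mt-Rnr1 with the mean of the list was 0.619 for 4 microglia markers, 0.591 for 4 astrocyte markers, 0.561 for 5 oligodendrocyte markers, 0.039 for 8 medium spiny neuron markers and 0.284 for 2 endothelial markers. At low depth the values were 0.034, 0.192, 0.112, -0.054 and -0.250 in that order. With mt-Cytb the values at high depth were 0.591, 0.318, 0.352, 0.107 and 0.233. At low depth they were 0.584, 0.357, 0.181, 0.168 and -0.026. Single markers differed within the lists, and some lay on opposite sides of 0. With mt-Rnr1 at high depth they ran from 0.239 to 0.763, 0.253 to 0.703, -0.172 to 0.767, -0.532 to 0.561 and -0.107 to 0.602 in the same order. The summed levels per mouse ran from 3123 to 8007 for microglia, from 67028 to 165624 for astrocytes and from 90009 to 265407 for oligodendrocytes. In such bulk samples more cells of a type and more RNA per cell cannot be told apart, and the part of these cells in the correlations was not tested.

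The nuclear respiratory chain genes were also compared between phenotypes. Of 65, none was called higher and 1 lower in responders, where 0.117% of all genes were called. Of the 65, 14 were above 0 with a median difference of -0.020, against 4079 of 8528 and -0.003 for all genes. An unadjusted p under 0.05 in limma was found for 3 of the 65, against 559 of the 8528. These genes share the same libraries and are not independent, and the count of 14 is given without a test. The gene called was Cox7a2, a complex IV subunit. It was between 612 and 1900 in non-responders with a median of 1039.5 and between 411 and 1827 in responders with a median of 698.5, so that the ranges overlapped and most responders were at the low end. It fell by 0.52 on the log2 scale (SE 0.11, limma adjusted p = 0.0142), and edgeR gave an adjusted p of 0.0559. Within the mice of high depth it fell by 0.47 (adjusted p = 0.242 in limma) and within those of low depth by 0.68 (adjusted p = 0.873). Its difference was opposite in direction to that of mt-Cytb, and its r with mt-Cytb over all mice was 0.240. Of the 8 nuclear complex III genes none was called, and their median difference was -0.026. None of 70 genes for mitochondrial ribosomes, transcription, RNA processing, mass and complex III assembly was called in limma. Of these 70, 6 had an unadjusted p under 0.05 in limma, against 559 of all 8528 genes.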

How the data were processed

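PolyA RNA-seq of 60 mice was analysed, 1 library each. The authors aligned reads with Bowtie 0.12.7 to NCBI m37 and scaled counts on Ensembl 59 models by an edgeR 3.4.2 upper quartile factor. The deposited gene table holds this signal, and 100% of its values gave whole reads within 0.001 reads. In the exon table these scaled counts are rounded per exon (unit: score, as the authors deposited them), and they were summed per gene. Symbols matched 97.7% of identifiers.

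Groups came from the labels. limma 3.58.1 with the trend option was fitted in R 4.3.3 to log2(value + 1) of 8530 genes averaging at least 10, with phenotype and sex as terms and Benjamini-Hochberg adjustment. Folds on this scale understate low genes. Alternatives were edgeR 4.0.16 on reads estimated from exon sums, scaling, filters, pseudocount, depth, 3′ bias and leaving out each mouse. Correlations used 100000 resamples. Tests were checked on simulated data. The other tools were BLAST 2.17.0, matplotlib 3.10.9, pandas 2.3.3, scipy 1.17.1, numpy 2.4.6 and Python 3.11.15. Depth means the reads recovered from the gene table, 4913122 to 21872744 per mouse, and not all reads sequenced. Errors come from differences between mice, and since litters are unknown p-values measure that spread only. By rule the text names the mitochondrial genes, complex III, RNA stability and transcription genes, list extremes, list members called and the 5 genes most like each; other list members named were chosen after their values were seen. The members and lists were chosen with earlier results of these data known. Of the cell type marker lists, 1 is not reported here.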

Additional observations from a re-analysis of the deposited data

How the results depend on the processing

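Neither mitochondrial gene passed the threshold in any group comparison under any alternative (lowest adjusted p = 0.258), and of 450 values 442 kept their direction. For mt-Rnr1 the female minus male difference was -0.0080 in the 17 mice of low depth and -0.16 in mice 41 to 56, and over single mice left out it ran from 0.039 to 0.17. Its interaction was 0.050 with edgeR, 0.28 in the mice of low depth, 0.60 in mice 41 to 56 and between -0.26 and 0.016 with 1 mouse left out, above 0 only without mouse 49. The female minus male difference of mt-Cytb was 0.044 in mice 41 to 56 and between -0.089 and 0.0049 with 1 mouse left out, above 0 only without mouse 41. The responder minus non-responder difference of mt-Cytb was between 0.27 and 0.36 with 1 mouse left out.

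The number of genes called between phenotypes, 10, was 6 among genes averaging at least 500, 17 with a term for low depth, 3 at high depth, 0 at low depth, 43 with a term for 3′ bias, 18 with a term for mice 41 to 56, 2 without these mice, 0 within them and 83 with terms for low depth and 3′ bias. Between sexes, 3 became 0 at high depth, 1 at low depth, 0 without mice 41 to 56 and 1 within them. In the 17 mice of low depth 160 genes had an unadjusted p under 0.05 between phenotypes in limma, and in mice 41 to 56 it was 171; between sexes it was 153 at high depth and 149 without mice 41 to 56. The fits within a range hold fewer mice, and the cause of the other shifts was not tested.

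The correlation of mt-Rnr1 with mt-Cytb, 0.031 over all mice, was -0.018 without logarithm, 0.606 at high depth, 0.607 without mice 41 to 56, 0.410 with low depth and 3′ bias held fixed and between -0.0017 and 0.111 with 1 mouse left out, below 0 only without mouse 25. That of mt-Rnr1 with the nuclear respiratory chain, 0.023, was -0.213 without logarithm, -0.077 without the 4 mice of strongest 3′ bias, 0.761 at high depth, 0.757 without mice 41 to 56, 0.346 with 3′ bias held fixed, 0.593 with low depth also held fixed and between -0.029 and 0.065 with 1 mouse left out, below 0 only without mouse 15 or 63. That of mt-Cytb with the nuclear respiratory chain was 0.487 within mice 41 to 56 (permutation p = 0.0543). The 3 correlations at high depth kept their call in all alternatives run on them. Settings with mice 41 to 56, the mice of low depth alone, both terms together and all alternatives within high depth were chosen after the data were seen. No paired analysis was possible because no number in the labels is shared by mice of different groups. Most mouse numbers run through the 4 groups in turn, and a fit with such runs as a block was not made.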

Other observations

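Within the 43 mice of high depth the genes most like mt-Rnr1 differed from those over all mice. C1d, a subunit of the nuclear exosome, had r = 0.920, the ubiquitin hydrolase genes Uchl3 and Uchl4 had 0.910 and 0.905, Uqcrh had 0.904 and the pseudogene Snrpert had 0.900. In the 17 mice of low depth these values were 0.008, 0.040, -0.117, -0.060 and 0.026. At the other end were Tmem63c (-0.899), the clathrin adaptor gene Ap2a1 (-0.895) and Dnajc16 (-0.895). These genes were chosen after their values were seen.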
